A study of Mus musculus with 8 samples.

Results

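The 10 genes described here encode chaperones, folding enzymes, degradation factors and transcription factors of the unfolded protein response that lie outside its ATF4 arm. They were taken by symbol from the deposited table (Atf6, Xbp1, Hspa5, Hsp90b1, Calr, Dnajb9, Sdf2l1, Pdia4, Herpud1 and Edem1). All 10 were found among 21692 genes, and all 10 passed the filter on low counts, as 15517 genes did. RNA from cultured forelimb buds of gestation day 13 CD1 mouse embryos was sequenced after 24 h in culture with the vehicle dimethyl sulfoxide (vehicle 1 to 4) or with organophosphate esters as a mixture (OPE 1 to 4), 4 libraries each. These esters are flame retardants and plasticisers, and the mixture was modelled on Canadian house dust and used at a dilution of 1 in 300000. Both groups shared the strain, the stage and the culture, and no untreated or uncultured buds were among the samples. Whether the replicates of a group were separate litters or cultures is not in the labels, and the spread behind each p-value may be technical in part.

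Proteins that are secreted or placed in membranes fold in the endoplasmic reticulum (ER). When unfolded proteins build up there, the sensor kinase IRE1 splices the mRNA of Xbp1 into the form that encodes an active transcription factor, and ATF6 is cut in the Golgi to release another. Both raise chaperone and degradation genes, while the kinase PERK acts through ATF4, which other stresses also induce. Cartilage and bone cells secrete large amounts of collagen, and ER chaperones are abundant in them. Gene counts pool spliced and unspliced Xbp1 mRNA, so the activity of neither XBP1 nor ATF6 was measured here, only the amounts of transcripts.

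The promoters of the genes the results turn on are printed first, because elements bound by the factors of both arms are known in such promoters. RefSeq (build GRCm38.p6) gave a window for 9 of the 10 genes; no window for Atf6 was matched. Each sequence is the 250 bases before the RefSeq start, read in the direction of the gene. Capitals mark fixed letters of the ER stress response element (ERSE, the letters CCAAT and CCACG with 9 bases between them, bound by NF-Y and ATF6), of its shortened form (CCAAT and CCA with the same gap), of ERSE-II (ATTGG and CCACG with 1 base between them), and of an element bound by ATF4 with C/EBP factors (CARE, TGATGCAA), each on either strand.
Hspa5 (chr2:34771840-34772089, plus strand): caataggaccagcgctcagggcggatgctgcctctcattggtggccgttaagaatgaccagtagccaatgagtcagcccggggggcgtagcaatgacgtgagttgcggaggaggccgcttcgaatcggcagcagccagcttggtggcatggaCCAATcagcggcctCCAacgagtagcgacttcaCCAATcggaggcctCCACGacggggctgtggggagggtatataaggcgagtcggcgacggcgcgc
Hsp90b1 (chr10:86705445-86705694, minus strand): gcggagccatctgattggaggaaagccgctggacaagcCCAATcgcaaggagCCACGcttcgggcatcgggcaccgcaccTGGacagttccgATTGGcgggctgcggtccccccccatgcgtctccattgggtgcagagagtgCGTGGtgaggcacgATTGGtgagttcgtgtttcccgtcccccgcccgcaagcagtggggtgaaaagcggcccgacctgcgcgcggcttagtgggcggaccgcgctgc
Herpud1 (chr8:94386179-94386428, plus strand): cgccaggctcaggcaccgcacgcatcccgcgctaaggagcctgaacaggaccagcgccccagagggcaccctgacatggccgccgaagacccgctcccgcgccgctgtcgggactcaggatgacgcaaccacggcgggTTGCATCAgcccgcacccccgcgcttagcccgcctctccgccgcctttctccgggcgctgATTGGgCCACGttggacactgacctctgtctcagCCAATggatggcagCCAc
Sdf2l1 (chr16:17132384-17132633, minus strand): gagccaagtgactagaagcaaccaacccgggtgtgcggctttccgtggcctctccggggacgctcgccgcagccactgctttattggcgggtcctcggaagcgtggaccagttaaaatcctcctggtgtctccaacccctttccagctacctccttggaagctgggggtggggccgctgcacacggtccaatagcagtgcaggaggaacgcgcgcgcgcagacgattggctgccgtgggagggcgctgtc

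The full ERSE occurred in the 300-base windows of Hspa5, Hsp90b1 and Calr, with 2 copies in Hsp90b1, against 0.119% of 32851 promoter windows. The shortened form, which every full ERSE contains, occurred in Hspa5, Hsp90b1, Calr, Pdia4 and Herpud1 and in 1.09% of all windows. Herpud1 alone of the 9 held ERSE-II, at 52 to 42 bases before the start, an element found in 0.0365% of windows. Herpud1 was also the only 1 of the 9 with the CARE letters, at 112 to 105 bases before the start (0.895% of windows). The core of the XBP1-bound element (TGACGTGG) was in none of the 9 and in 0.676% of windows. In the Sdf2l1 window no searched element of the ER response was found except 4 copies of the CCAAT box, a pentamer that 37.4% of windows hold. Such elements were known in promoters of this kind beforehand, so the shares of all windows are a description and no independent test of these genes. A match describes these letters in this window and says nothing of whether a factor was bound.

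Per length, calreticulin was the most abundant of the 10 genes and the sensor Atf6 the least. In vehicle libraries the deposited FPKM values (fragments scaled to gene length and library size) averaged 478 ± 35.3 for Calr (mean ± SD, n = 4 libraries) and 7.61 ± 0.498 for Atf6. Between them, Hspa5 had 289.8 ± 16.3 FPKM, Hsp90b1 126 ± 17.6, Pdia4 105 ± 6.52, Xbp1 67.6 ± 7.72 and Herpud1 34.8 ± 4.37. Dnajb9 had 20.4 ± 2.03 FPKM, Sdf2l1 16.0 ± 3.33 and Edem1 10.97 ± 0.594. The vehicle values of neighbours in this order did not overlap, except for Hsp90b1 with Pdia4 and Dnajb9 with Sdf2l1. Calr lay above 99.6% of all genes in the table and Atf6 above 63.2%. Together the 10 genes took between 0.276% and 0.305% of the counted reads in vehicle libraries and between 0.256% and 0.287% in OPE libraries.

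**Figure D1:**
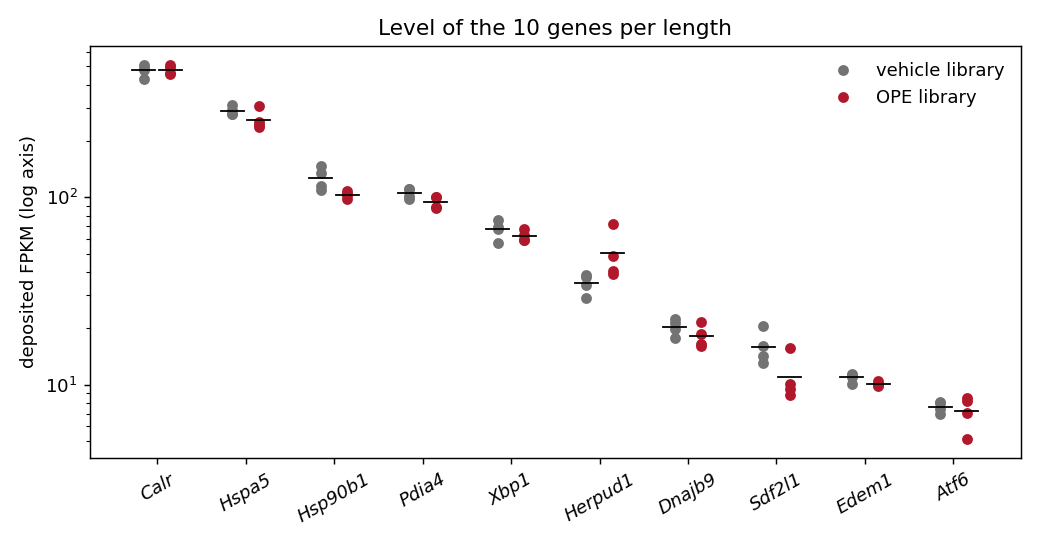
Deposited FPKM of each gene (log axis) in the 4 vehicle libraries (grey) and the 4 OPE libraries (red), with black lines at the group means. Levels run from 478 FPKM for Calr to 7.61 for Atf6 in vehicle. The OPE points of Herpud1 all lie above its vehicle points. Those of Hsp90b1 all lie below its vehicle points (OPE at most 107.6, vehicle at least 109.01 FPKM). The share of all genes that separate on this scale was not counted.

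None of the 10 genes passed an adjusted p of 0.05 with OPE (edgeR quasi-likelihood test, Benjamini-Hochberg over 15517 genes), against 0.477% of all genes tested (0.0387% higher and 0.438% lower). DESeq2 and limma-voom called none of them either, where they called 3.45% and 0.651% of all genes. The adjusted p deposited by the authors called none of the 10, with a smallest value of 0.086, for Herpud1. By that adjusted p, 476 of 21692 genes were called (156 higher and 320 lower), and 3933 genes had no value. At such shares a set of 10 genes would often hold no call, so the lack of one says little. At an unadjusted edgeR p of 0.05, Herpud1 was past the threshold on the higher side and Sdf2l1 on the lower side, as 5.85% and 7.31% of all genes were (13.2% in all). The log2 fold change was below 0 for 8 of the 10 genes, with a median of -0.09, against 47.2% of all genes tested and a median of 0.01. The size of the differences was small: 8 of the genes lay within 0.24 of 0 on the log2 scale, the exceptions being Herpud1 and Sdf2l1.

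Atf6, the sensor whose cut fragment activates chaperone genes, is on chromosome 1 (170704674 to 170867771, mm10). It had 57.8, 49.7, 57.0 and 52.5 CPM (counts scaled to TMM-adjusted library size) in vehicle 1 to 4 and 61.7, 50.8, 40.1 and 59.5 CPM in OPE 1 to 4. The groups overlapped, with OPE 3 the lowest of the 8 libraries and OPE 1 the highest. The log2 fold change was -0.03 ± 0.13 (SE; edgeR adjusted p = 0.953), and without OPE 3 it was 0.08 (adjusted p = 0.70). Xbp1, the target of IRE1, lies on chromosome 11 (5520659 to 5525893). Its values were 121, 158, 143 and 144 CPM with vehicle and 127, 126, 156 and 134 CPM with OPE. These ranges also overlapped, and the lowest value was in vehicle 1 (log2 fold change -0.06 ± 0.11, adjusted p = 0.873).

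Hspa5 encodes BiP, the Hsp70 chaperone of the ER lumen that also holds the sensors inactive (chromosome 2, 34771970 to 34776531). It had 758, 798, 714 and 709 CPM in vehicle 1 to 4 and 622, 635, 860.0 and 659 CPM in OPE 1 to 4. OPE 1, 2 and 4 were below every vehicle library and OPE 3 above every one of them. The log2 fold change was -0.10 ± 0.12 over all 8 libraries (adjusted p = 0.796) and -0.22 ± 0.07 without OPE 3 (adjusted p = 0.12). DESeq2 without OPE 3, a fit chosen after the data had been seen, gave -0.22 ± 0.07 with an adjusted p of 0.0421, where 3.33% of all genes were called lower.

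Hsp90b1 encodes GRP94, the Hsp90 chaperone of the ER (chromosome 10, 86690209 to 86705509). Its vehicle values spread from 467 and 429 CPM in vehicle 1 and 2 to 363 and 343 CPM in vehicle 3 and 4. The OPE values were 336, 345, 341 and 337 CPM, within a narrow range at the bottom of the vehicle values. On this scale only vehicle 4 lay among the OPE libraries. In the deposited FPKM values, which are scaled differently, every OPE value (98.4 to 107.6) was below every vehicle value (109.01 to 146). The overlap thus rests on the scaling, and the share of all genes that separate on the FPKM scale was not counted. The log2 fold change was -0.24 ± 0.11 (adjusted p = 0.386; exact permutation p = 0.0571 over 70 assignments, two-sided, 1 of 10 such tests and not adjusted). Of these tests Herpud1 gave the smallest p that 4 against 4 libraries allow, 0.0286, and no other gene gave one below 0.0571. Calr, calreticulin, a lectin chaperone for glycoproteins (chromosome 8, 84841850 to 84846934), had 926, 1093, 1037 and 1046 CPM with vehicle and 1014, 995, 1195 and 1079 CPM with OPE. Its highest value was in OPE 3 and its lowest in vehicle 1, and the log2 fold change was 0.06 ± 0.11 (adjusted p = 0.87).

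Dnajb9, an Hsp40 co-chaperone also called ERdj4 that recruits BiP to IRE1, lies on chromosome 12 (44205897 to 44210068). It had 41.7, 39.2, 36.5 and 32.6 CPM in vehicle 1 to 4 and 30.97, 29.98, 43.5 and 34.97 CPM in OPE 1 to 4. OPE 3 was again the highest of the 8 libraries and OPE 1 and OPE 2 were the lowest (log2 fold change -0.11 ± 0.13, adjusted p = 0.81; -0.23 without OPE 3, adjusted p = 0.265). Pdia4, a protein disulfide isomerase (chromosome 6, 47796142 to 47813512), had 251, 269, 272 and 237 CPM with vehicle and 223, 218, 267 and 250.2 CPM with OPE. OPE 1 and OPE 2 lay below the vehicle range and OPE 3 and OPE 4 inside it (log2 fold change -0.10 ± 0.10, adjusted p = 0.736).

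Sdf2l1, which forms a complex with ER Hsp40 proteins and keeps BiP clients soluble, was the lowest of the 10 relative to vehicle (chromosome 16, 17130138 to 17132383). It had 14.3, 22.4, 15.6 and 17.4 CPM in vehicle 1 to 4 and 9.88, 10.5, 18.7 and 11.1 CPM in OPE 1 to 4. OPE 1, 2 and 4 lay below every vehicle library and OPE 3 inside the vehicle range. Hspa5 and Sdf2l1 were the 2 of the 10 genes with those 3 libraries below all vehicle values, as in 8.71% of genes tested, and Herpud1 the 1 with them above (7.1%). Over all libraries the log2 fold change was -0.48 ± 0.22 (adjusted p = 0.38). Without OPE 3 it fell by 0.73 ± 0.15 (adjusted p = 0.034), where 1.43% of 15824 genes were called lower and 1.95% in either direction. With gene-length trends removed and OPE 3 left out, a pair of choices made after the data had been seen, it fell by 0.66 ± 0.14 (adjusted p = 0.0188, with 2.14% of all genes called lower).

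Herpud1 encodes a membrane protein of the ER that organises the ubiquitin ligase complex for degradation, and it is known to respond to ATF4 as well as to ATF6 and XBP1 (chromosome 8, 94386438 to 94395377). On the CPM scale it was the only 1 of the 10 genes whose groups did not overlap. On the deposited FPKM scale Hsp90b1 did not overlap either, in the other direction, and no share of all genes was counted there. Herpud1 had 72.4, 74.1, 65.6 and 55.2 CPM in vehicle 1 to 4 and 142, 79.1, 102 and 76.0 CPM in OPE 1 to 4. All 4 OPE values were above all 4 vehicle values, as in 4.05% of the genes tested, and OPE 1 and OPE 3 stood highest. The log2 fold change was 0.58 ± 0.19 (adjusted p = 0.204), a fold of 1.498, and 0.35 ± 0.14 without OPE 1 (adjusted p = 0.374). Without both OPE 1 and OPE 3 it was 0.22 ± 0.11 (adjusted p = 0.546). Edem1, a lectin that hands misfolded glycoproteins to degradation (chromosome 6, 108828641 to 108859356), showed overlapping groups. It had 66.4, 58.2, 65.6 and 62.8 CPM with vehicle and 59.2, 61.0, 62.6 and 57.6 CPM with OPE (log2 fold change -0.07 ± 0.08, adjusted p = 0.778).

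**Figure D2:**
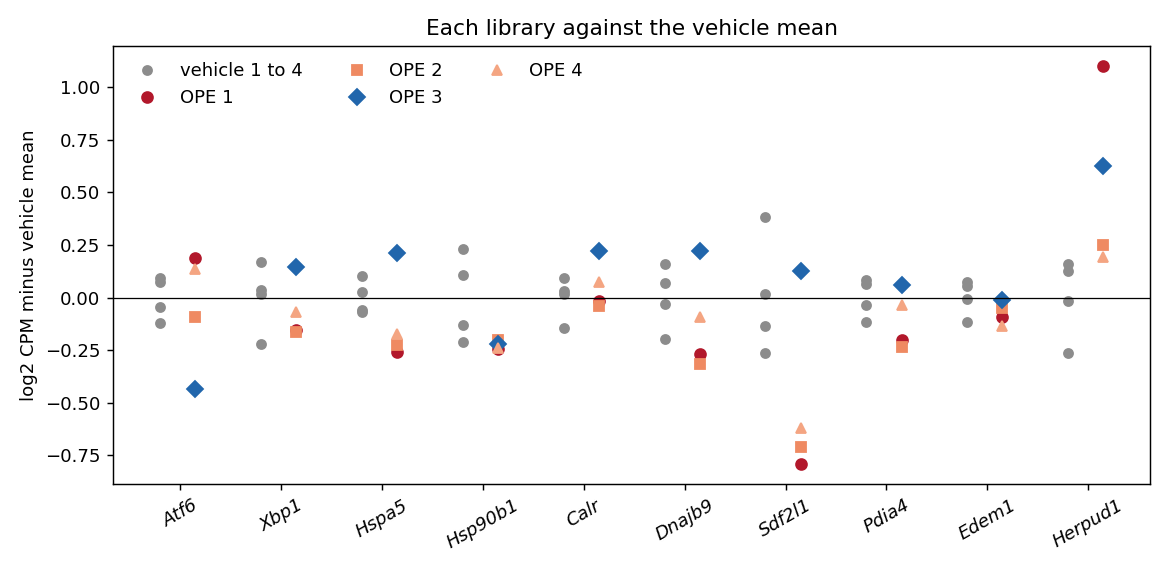
Log2 CPM of each gene minus its vehicle mean in the vehicle libraries (grey) and in OPE 1 to 4 (coloured by library), with genes ordered by role. OPE 3 lies above the other OPE libraries for Xbp1, Hspa5, Calr, Dnajb9, Sdf2l1, Pdia4 and Edem1 and below them for Atf6, while OPE 1 is highest for Herpud1 at 1.10.

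OPE 3 thus differed from the other OPE libraries in the direction of several chaperone genes, and the properties of that library are given beside them. The median of the 10 genes relative to the vehicle mean was -0.18, -0.18, 0.14 and -0.08 in OPE 1 to 4, and between -0.06 and 0.10 in the vehicle libraries. The slope of a library's log2 deviations on log2 gene length was steepest in OPE 3, at -0.21, where shorter genes read higher. Every one of the 7 remaining libraries had a slope from -0.03 to 0.10. Protein-coding genes with symbols of Rpl or Rps followed by a digit made up 8.29% of the reads of OPE 3, against 4.17% to 5.33% of those of the rest. The longest of the 10 genes were Atf6 and Edem1 (7246 and 5858 bases in the deposited table) and the shortest was Sdf2l1 (1108 bases). After a spline of gene length was taken out of each library, Atf6 in OPE 3 moved from -0.43 to -0.05, Dnajb9 from 0.22 to 0.06 and Sdf2l1 from 0.13 to -0.19. Edem1 in OPE 3 moved away from vehicle, from -0.01 to 0.31, and stood apart from the other OPE libraries only after this step. Hspa5 in OPE 3 moved little, from 0.21 to 0.19. Over all 8 libraries with these trends removed, Sdf2l1 gave -0.53 ± 0.15 (edgeR adjusted p = 0.0846) and Hspa5 -0.07 ± 0.10 (adjusted p = 0.739).

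Within the 8 libraries several of the genes varied together. The Pearson correlation of log2 CPM was 0.91 for Hspa5 with Dnajb9, 0.88 for Hspa5 with Sdf2l1 and 0.85 for Xbp1 with Calr, each over 8 libraries. Atf6 ran the other way, at -0.73 with Hspa5 and -0.66 with Xbp1, and Herpud1 did not follow Hspa5 (-0.17). These points share OPE 3 and its length trend, so the correlations are descriptions only. Among 11754 other genes with a mean of at least 5 CPM, those most like Hspa5 were Usp14, a proteasome-bound ubiquitin protease (r = 0.98), Hpcal1, a calcium sensor (0.98), Rhob, a small GTPase (0.98), Crlf3 (0.98) and Crip2 (0.96). With group means subtracted the correlations of these 5 genes lay between 0.96 and 0.98. None of the 5 passed the threshold, with log2 fold changes from -0.24 to -0.10 and adjusted p from 0.647 to 0.796.

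The other genes of the ER folding machinery were read from lists chosen with earlier results of these data known. Of 22 other chaperones and co-chaperones none passed the threshold, against 0.477% of all genes tested. At that share a list of this size, here or below, would often hold no call, so the lack of one says little. Of the 22, 12 lay above 0 in log2 fold change, with a median of 0.02. Dnajc3, the co-chaperone p58IPK that also restrains PERK, had 86.8, 86.7, 93.1 and 87.9 CPM with vehicle and 71.4, 69.6, 67.4 and 81.8 CPM with OPE. Its groups did not overlap, as in 5.44% of genes on the lower side (log2 fold change -0.29 ± 0.09, edgeR adjusted p = 0.18). Hyou1, the Grp170 chaperone that exchanges nucleotides on BiP, was between 164 and 178 CPM with vehicle and between 142 and 153 CPM with OPE, again without overlap (-0.21 ± 0.08, adjusted p = 0.251). Cnpy2 and Cnpy3, ER proteins of the canopy family, gave 0.41 ± 0.17 and 0.21 ± 0.10 (adjusted p = 0.33 and 0.414), and 0.18 and 0.14 without OPE 3. The groups of Cnpy3 did not overlap either, on the higher side, as in 4.05% of all genes tested. It had 49.6 to 61.2 CPM with vehicle and 62.2 to 76.5 CPM with OPE. Without OPE 3, 2 of the 22 were called lower, as were 1.43% of all genes tested. The 2 were Manf, a secreted ER stress protein (-0.40 ± 0.09, adjusted p = 0.038), and Creld1 (-0.53 ± 0.12, adjusted p = 0.0461). Both are named here after their values were seen.

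The 17 ER oxidoreductases, which form and rearrange disulfide bonds, had none past the threshold (0.477% of all genes tested) and a median of 0.07. Ero1l, the oxidase that recharges the isomerases, had 115, 76.4, 63.7 and 37.7 CPM in vehicle 1 to 4 and between 37.1 and 50.5 CPM with OPE. The fold change of -0.79 ± 0.26 (adjusted p = 0.22) rested on vehicle 1 to 3, since vehicle 4 lay within the OPE values, and was -0.49 without vehicle 1. Tmx2, Erp44 and Txndc11 gave 0.22, 0.18 and -0.16 (adjusted p = 0.468, 0.469 and 0.471), and Tmx2 and Erp44 gave 0.10 and 0.096 without OPE 3.

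Of 23 degradation genes other than Herpud1 and Edem1, none passed, against 0.477% of all genes tested. Of the 23, 12 lay above 0 in log2 fold change and 11 below. Herpud2, a relative of Herpud1, had between 50.6 and 54.4 CPM with vehicle and between 55.1 and 69.0 CPM with OPE (0.27 ± 0.09, adjusted p = 0.219). Vimp, also called selenoprotein S and part of the channel that returns proteins to the cytosol, had between 51.8 and 57.1 CPM with vehicle and between 60.9 and 104 CPM with OPE (0.46 ± 0.16, adjusted p = 0.222), and gave 0.26 without OPE 3. In both genes, and in Ubac2 (0.23 ± 0.09, adjusted p = 0.327), all 4 OPE values were above all 4 vehicle values, as in 4.05% of all genes tested. Derl3, a derlin of secretory cells that XBP1 induces, was low, at 8.30, 8.06, 3.84 and 3.42 CPM with vehicle and 1.85, 3.64, 2.36 and 0.933 CPM with OPE. It gave -1.43 ± 0.40 (edgeR adjusted p = 0.158), and DESeq2 called it (adjusted p = 0.0199). OPE 2 lay inside the vehicle range.

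The sensors and their partners (14 genes, median -0.04) and the translocon and signal peptide genes (27 genes, median 0.10) also had none past the threshold. Of all genes tested 0.477% were past it. Nfya, a subunit of the NF-Y factor that binds the CCAAT part of the ERSE, was between 97.1 and 106 CPM with vehicle and between 74.6 and 96.8 CPM with OPE (-0.22 ± 0.09, adjusted p = 0.339). The site-1 and site-2 proteases that cut ATF6, Mbtps1 and Mbtps2, gave -0.18 ± 0.10 and 0.16 ± 0.12 (adjusted p = 0.498 and 0.619), and Creb3 gave 0.17 ± 0.12 (adjusted p = 0.601). Of the translocon list 22 genes had a log2 fold change above 0. The 4 with the smallest p were Sec11c, Rpn1, Stt3a and Spcs1, with 0.25, 0.17, 0.15 and 0.27 (adjusted p from 0.467 to 0.582). Without OPE 3, Sec11c gave 0.14, Rpn1 0.10 and Spcs1 0.0099. The translocon median in single libraries was 0.36 in OPE 3 and between -0.05 and 0.03 in OPE 1, 2 and 4.

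The ATF4 arm is set beside these genes because the same stress can engage both. Its 22 genes had a median log2 fold change of 0.82, with 21 above 0, where 47.2% of all genes tested lay below 0. Past the threshold, 2 of them rose, where 0.0387% of all genes tested were called higher. Gdf15, a stress cytokine, rose by 2.95 ± 0.34 (edgeR adjusted p = 0.0071), and Nupr1, a small stress-induced nuclear protein, by 1.45 ± 0.27 (adjusted p = 0.0484). The call of Gdf15 held in all 18 planned settings that tested it. That of Nupr1 held in 8 of 19, with adjusted p up to 0.159 (without vehicle 1), and was lost without any single library other than OPE 4, with limma-voom (0.0611) and with the replicate block (0.0766). In 13 of the 22 all 4 OPE values were above all 4 vehicle values, as in 4.05% of all genes tested. Asns (asparagine synthetase) and Mthfd2 (a mitochondrial folate enzyme), both known targets of ATF4, had values of 1.05 ± 0.20 and 1.00 ± 0.20 (adjusted p = 0.0504 and 0.0522). The ATF4 list and the 10 genes were compared in the same libraries with the same controls, and the difference between them was not tested.

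By library, the median of the ATF4 arm relative to vehicle was 1.53, 0.45, 0.84 and 0.35 in OPE 1 to 4. Herpud1 was at 1.10, 0.25, 0.62 and 0.19 in the same libraries, in the same order from OPE 1 through OPE 3 and OPE 2 to OPE 4. Hspa5 was at -0.26, -0.23, 0.21 and -0.17 and Sdf2l1 at -0.79, -0.71, 0.13 and -0.62. OPE 1, which had the highest ATF4 arm median, was the lowest library for both of these chaperone genes, with OPE 2 close to it. OPE 3, the next highest for the ATF4 arm, was the highest OPE library for both. In vehicle 1 to 4 the ATF4 arm median was -0.10, 0.13, -0.01 and -0.04. Herpud1 was at 0.12, 0.16, -0.02 and -0.27 there, in a different order. No relation between these values was tested.

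**Figure D3:**
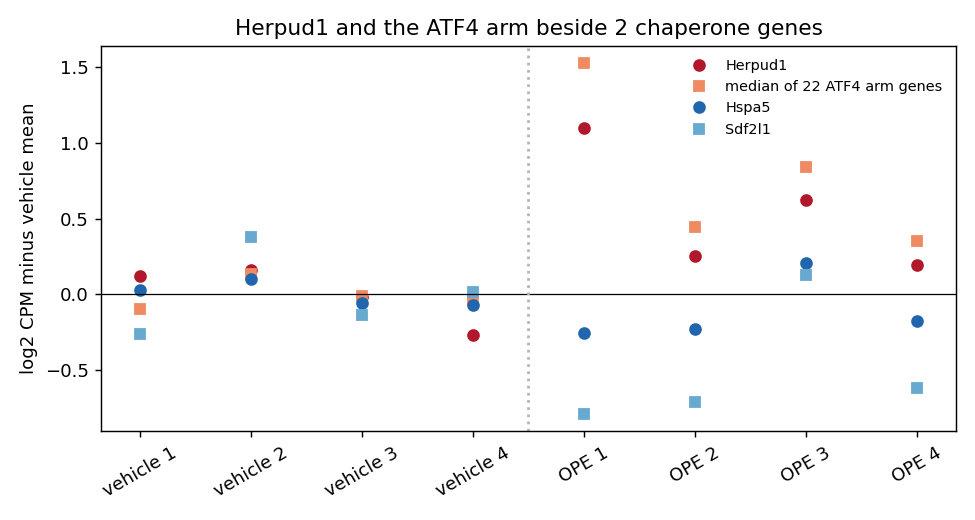
Log2 CPM minus the vehicle mean in each of the 8 libraries for Herpud1 (red circles), Hspa5 (dark blue circles) and Sdf2l1 (light blue squares), with the median of the 22 ATF4 arm genes (orange squares). Herpud1 and the ATF4 arm are highest in OPE 1, at 1.10 and 1.53, where Hspa5 and Sdf2l1 are at -0.26 and -0.79. In OPE 3 Herpud1 and the ATF4 arm are at 0.62 and 0.84, and Hspa5 and Sdf2l1 at 0.21 and 0.13.

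Heat shock chaperones of the cytosol and mitochondria, which fold proteins outside the ER, had none of 22 past the threshold (0.477% of all genes tested). Their median was 0.07. Hspa9, the mitochondrial Hsp70, was between 262 and 303 CPM with vehicle and had 482, 320, 341 and 311 CPM in OPE 1 to 4 (0.39 ± 0.14, adjusted p = 0.254), and gave 0.21 without OPE 1. Hspe1, the mitochondrial Hsp10 co-chaperonin, stood at 250.3 CPM in OPE 3, against 129 to 138 CPM in OPE 1, 2 and 4 (0.40 ± 0.20, adjusted p = 0.426), and gave 0.11 without OPE 3. Hsf1, the heat shock transcription factor, and its target Hspa1b gave 0.18 ± 0.09 and -0.27 ± 0.17 (adjusted p = 0.406 and 0.539).

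**Figure D4:**
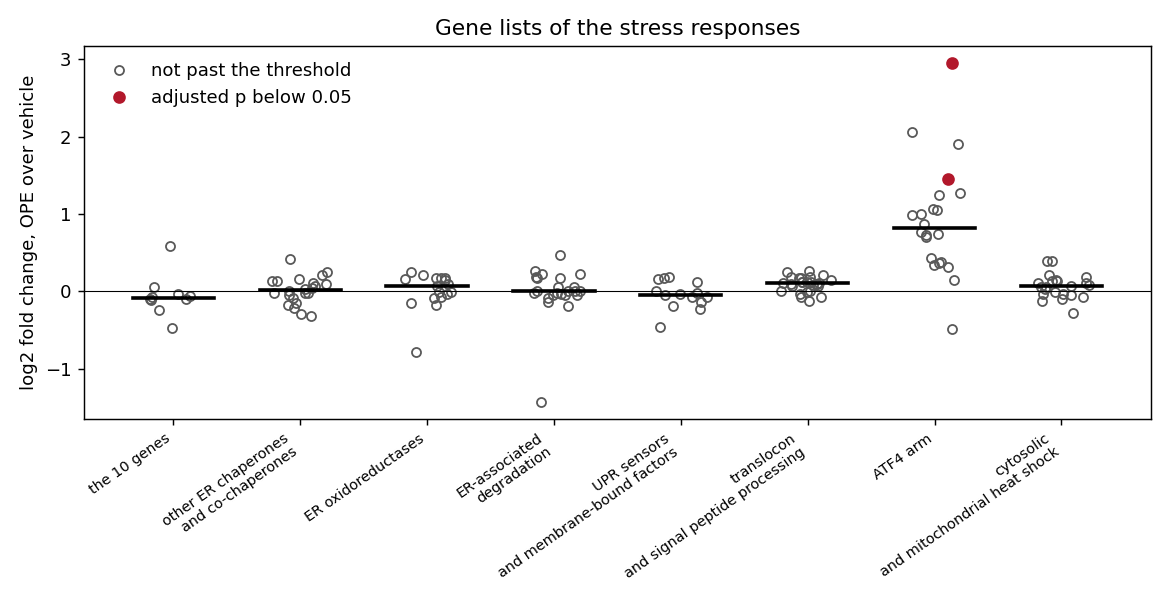
Log2 fold change (OPE over vehicle) of every tested gene of 8 lists, with filled red points past an adjusted p of 0.05 and black lines at the medians. The 10 genes have a median of -0.09 and the ATF4 arm, the list with both red points, a median of 0.82.

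Markers of several cell types also differed between the groups. Of all genes tested 0.438% were called lower at an adjusted p below 0.05, and 47.2% had a log2 fold change below 0. Of 15 macrophage markers 8 were called lower and none higher, and all 15 lay below 0. Their summed level was between 219.6 and 259 CPM with vehicle and between 45.3 and 122 CPM with OPE. Of 14 endothelial markers 2 were called lower and 12 lay below 0. Their sums were 425 to 487 CPM with vehicle and 257 to 378 CPM with OPE. Of 14 hypertrophic chondrocyte and osteoblast markers tested 12 lay below 0. The 5 called lower were Col10a1, Runx3, Sp7, Alpl and Ifitm5. These 5 summed to 105 to 165 CPM with vehicle and 57.1 to 68.2 CPM with OPE. They were picked by this same contrast, so the gap between their sums adds no support. The whole list summed to 5522 to 6162 CPM and 4725 to 5091 CPM, most of it Col1a1 and Col1a2, neither of which passed (adjusted p = 0.252 and 0.628). The chondrocyte markers (14 genes) and the limb mesenchyme markers (10 genes) had none past the threshold, with medians of -0.07 and 0.13, and no marker of any list was at 0 in all libraries. Tbx5, the forelimb factor, stood at 284 ± 11.1 CPM in vehicle, and the hindlimb genes Tbx4 and Pitx1 together at 27.7 to 32.8 CPM. In bulk RNA, fewer cells of a type and less RNA per cell cannot be told apart, and the part of cell makeup in the chaperone values was not tested.

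Under 19 other planned settings, Hspa5, Hsp90b1, Xbp1, Dnajb9, Sdf2l1 and Pdia4 stayed below 0 and Herpud1 and Calr above 0. Atf6 and Edem1 changed sign in 3 and 1 of them. The only call was that of Sdf2l1 without OPE 3. Adjusted p over these settings ranged from 0.0807 to 0.546 for Herpud1 and from 0.12 to 0.901 for Hspa5.

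**Figure D5:**
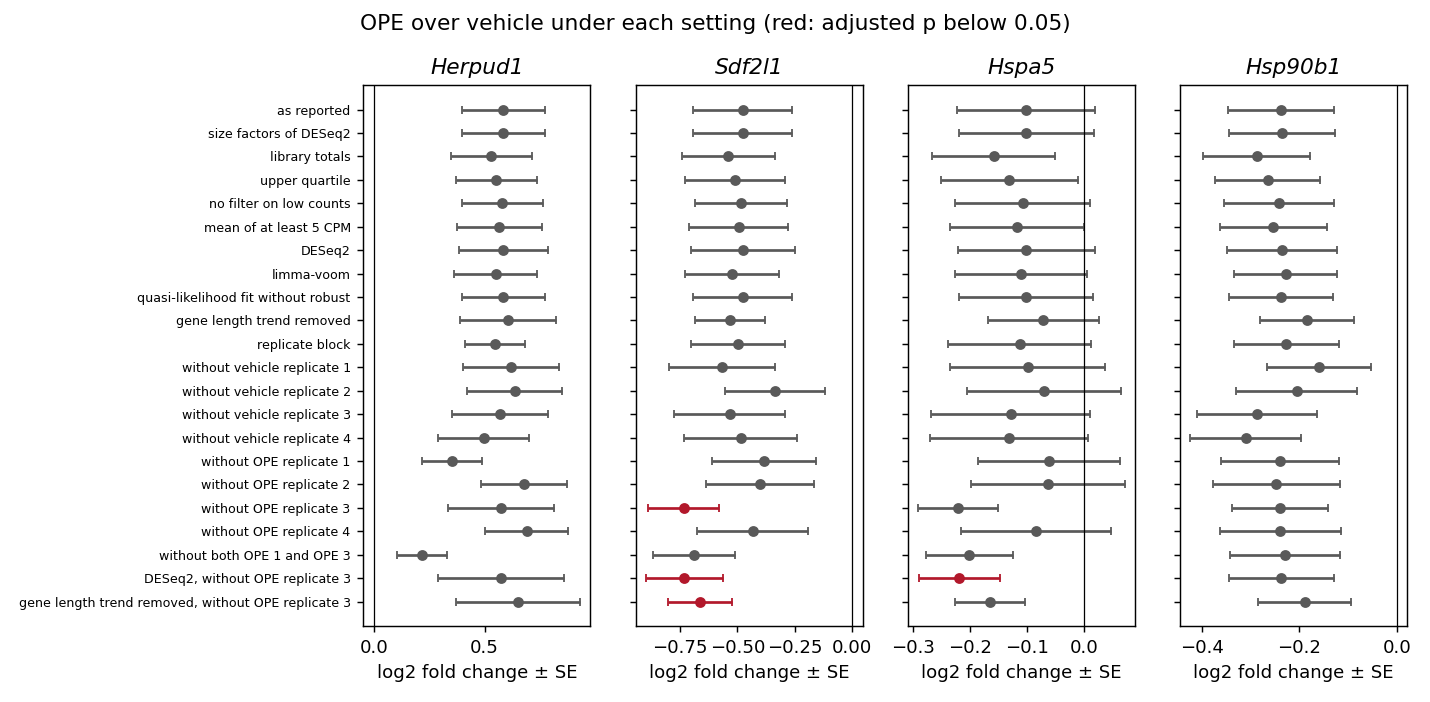
Log2 fold change (OPE over vehicle, with its SE) of Herpud1, Sdf2l1, Hspa5 and Hsp90b1 as reported and under each other setting, with red for an adjusted p below 0.05. Red points appear for Sdf2l1 in the 3 fits without OPE 3 that keep the other libraries and for Hspa5 in the DESeq2 fit without OPE 3.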

How the data were processed

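Poly-A RNA was sequenced from 8 samples. Tools named in the submitters' processing notes, without their roles, were STAR 2.5, HTSeq 0.6.1, CASAVA 1.8 and DESeq2 (as version 2), with the build mm10. The sources used here give no annotation and no strand setting. Per the file headers, the table that the authors deposited holds raw read counts, counts divided by a size factor (signal values, 0.803 to 1.25 per library), FPKM values, log2 fold changes and p-values. Libraries held 14986793 to 22006738 counted reads, and every replicate pair differed beyond counting noise (ratio of chi-square to its degrees of freedom 4.80 or more).

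The count test was edgeR 4.0.16 under R 4.3.3 (TMM, filterByExpr, robust quasi-likelihood fit, group as the only term, two-sided, Benjamini-Hochberg at 0.05). The SE is the log2 fold change over the root of F. Log2 CPM had a prior count of 2. FPKM was used for levels between genes and to see whether the groups overlapped in each of the 10 genes, with no test. Alternatives used DESeq2 1.42.0, limma 3.58.1, other scaling and filters, splines of gene length with 5 degrees of freedom, the replicate number as a block, and fewer libraries. The steps were tested on simulated data. The members and lists were chosen with earlier results of these data known. The text names all 10 genes, the 4 genes of smallest p in each list and the 5 genes most like Hspa5. Other genes that overlap Hsp90b1 and Herpud1 held counts of at most 1.12% of theirs. How reads in the shared bases were counted is not known, so this share does not bound the error.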

Additional observations from a re-analysis of the deposited data

Results flagged for a closer look

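The values below stood apart from the other 3 libraries of their group by Dixon's test at the 95% level. Of 90 groups of 4 libraries examined 11 stood out, and chance gives about 1 in 20. OPE 3 held 8 of the 11. Among the 10 genes these were Hspa5 (860.0 CPM, the others 622 to 659) and Sdf2l1 (18.7 CPM, the others 9.88 to 11.1). OPE 3 was also apart for Hyou1 (142 CPM), Cnpy2 (186 CPM), Tmx2 (60.2 CPM), Hspe1 (250.3 CPM), Hpcal1 (39.1 CPM) and Crlf3 (43.8 CPM). Hpcal1 and Crlf3 had been picked for their likeness to Hspa5, so their values repeat its pattern. In the vehicle group, vehicle 1 was low for Cnpy3 (49.6 CPM) and Mthfd2 (58.4 CPM), and vehicle 2 had the highest share of counts in the 10 genes (0.305%).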

How the results depend on the processing

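The count of called genes among the 10 was 0 in every planned setting except without OPE 3, where it was 1 (lower), so it ranged from 0 to 1 when single libraries were left out, and no gene was called higher. With DESeq2 and without OPE 3, added after seeing the data, 2 were called lower, and with length trends removed and without OPE 3, 1. The median of the 10 lay between -0.15 and -0.05 when single libraries were left out. Over the table, 74 genes were called, and 131 with library totals, 136 with no filter on low counts, 19 at a mean of at least 5 CPM, 536 with DESeq2, 322 with length trends removed, 7 to 308 when single libraries were left out, 819 with DESeq2 without OPE 3 and 751 with length trends removed without OPE 3. In the ATF4 arm, 2 were called, and 4 with library totals, 6 with no filter, 0 at a mean of at least 5 CPM (a filter that left Gdf15 untested), 12 with DESeq2, 4 with length trends removed, 1 with the replicate block, 1 to 10 without single libraries, 5 without both OPE 1 and OPE 3, and 11 and 4 in the pair of added fits. The chaperone list had 0 to 2 calls without single libraries and 2 in each added fit. The degradation list had 1 with DESeq2, and 1 and 2 in the added fits; the heat shock list had 1 with DESeq2 without OPE 3. Atf6 changed sign to 0.039 with length trends removed, 0.027 without both OPE 1 and OPE 3, and 0.084 and 0.068 in the added fits. Without single libraries it ran from -0.12 to 0.082, above 0 without OPE 3. Edem1 changed sign to 0.019 with length trends removed; the cause was not tested.

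Deviations of same-numbered libraries had correlations of 0.31, 0.08, 0.01 and 0.09, and those of differently numbered libraries ran from -0.34 to 0.36. In 2 cases a vehicle library was most like the OPE library of its own number. With 4 libraries per group these values cannot tell whether the numbers pair the libraries. With the replicate number as a block 62 genes were called, none of them among the 10 (Herpud1 0.55, adjusted p = 0.135). The lowest of the 10 genes in counts, Sdf2l1, has the widest error of the group (SE 0.22). Even its log2 fold change of -0.48 did not pass the threshold (edgeR adjusted p = 0.38).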
